A study of Homo sapiens with 15 samples.

Results

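Interferon signals reach the nucleus through paired receptor chains, Janus kinases and STAT transcription factors, and 9 genes of this route were followed in the breast cancer line MDA-MB-468: IFNGR1, IFNGR2, IFNAR1, IFNAR2, JAK1, JAK2, TYK2, STAT2 and IRF9. They were chosen by symbol and mapped to the Ensembl gene IDs of the counts table, and all 9 were found among its 61552 genes. The series holds 15 RNA libraries in 5 groups of 3 replicates. All cells are MDA-MB-468, an established human line that is triple negative and carries a high level of the epidermal growth factor receptor (EGFR). In the drug experiment the cells were starved of serum for 12 h, given 10 ng per mL EGF and then kept for 12 h without a drug (EGF), with 10 μM of the peptide cSNX1.3, which keeps EGFR from binding Sorting Nexin 1 (cSNX), or with 15 μM of the EGFR kinase inhibitor erlotinib (ERL). In the line experiment endogenous EGFR was knocked down by a lentiviral short hairpin RNA induced with 1 mM IPTG, and a GFP-tagged EGFR was introduced that was either wildtype (shEGFR-WT) or had 3 residues of its nuclear localization sequence (NLS) substituted (shEGFR-NLS). Both lines were given EGF, at a dose and for a time not given in the sources used here, and whether either is a single clone is not given either. The control of both drug comparisons was EGF alone, not a control peptide.

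Type II interferon binds a receptor of 2 IFNGR1 and 2 IFNGR2 chains, where IFNGR1 binds the ligand and carries JAK1 and IFNGR2 carries JAK2. Type I interferons bind IFNAR1 and IFNAR2, which carry TYK2 and JAK1, and the signal runs through the factor ISGF3, which holds STAT2 and IRF9. The IFNGR1 chain is usually abundant, while the amount of IFNGR2 is known to set how strongly some cells respond to interferon-γ.

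The deposited raw counts summed to 22915676 to 35900649 read pairs per library, and levels are CPM, the counts divided by the library size after TMM scaling over the 15 libraries. Mitochondrial genes held 2.24% to 3.06% of the counts. All 5 epithelial markers checked had at least 1981 counts in every library, while the leukocyte markers PTPRC, CD3E, MS4A1, LYZ and NKG7 had at most 7. Summed epithelial markers ranged from 11936 to 15598 CPM with EGF, 13669 to 17782 with cSNX and 7172 to 8532 with ERL. In the lines their sum was 15880 to 18300 CPM in shEGFR-WT and 9578 to 11691 in shEGFR-NLS. KRT8 (log2 fold change -1.20) and KRT18 (-1.14) were called lower and CDH1 (0.47) higher in ERL vs. EGF. KRT18 was called higher in cSNX vs. EGF (0.57). Summed leukocyte markers, most of which were CD14, ranged from 15.1 to 20.4 CPM with EGF, 11.0 to 14.6 with cSNX, 41.4 to 44.9 with ERL, 26.3 to 37.7 in shEGFR-WT and 39.1 to 43.5 in shEGFR-NLS. CD14 was lower in cSNX vs. EGF (log2 fold change -0.57) and higher in ERL vs. EGF (1.33) and in shEGFR-NLS vs. shEGFR-WT (0.42), each called, and NCAM1 was called higher in the latter pair of comparisons. Of the 6 fibroblast and endothelial markers, COL3A1 and DCN had at most 8 counts, and the sum, mostly COL1A1, was 17.5 to 19.9 CPM with EGF, 22.3 to 23.4 with cSNX, 12.8 to 17.2 with ERL, 17.3 to 17.9 in shEGFR-WT and 14.2 to 16.1 in shEGFR-NLS. In ERL vs. EGF COL1A1 was called lower (log2 fold change -0.39) and VWF higher (2.38, at 29, 16 and 15 counts against 3, 6 and 1). PECAM1 averaged 5.17 CPM in shEGFR-WT and 5.18 in shEGFR-NLS, against 1.17 with EGF. The part of these genes in the results on the members was not tested. PGR was at 0 in every library and ESR1 at 61 to 292 counts. EGFR lay at 4318 to 4963 CPM with EGF, 5760 to 6502 with cSNX and 4564 to 4992 with ERL, and at 1147 to 1450 CPM in shEGFR-WT and 1688 to 1746 CPM in shEGFR-NLS, where reads of the introduced and the endogenous EGFR were not told apart. EGFR was higher in shEGFR-NLS than in shEGFR-WT (log2 fold change 0.37, Benjamini-Hochberg adjusted p = 0.00367, edgeR), so the lines differed in the amount of EGFR RNA as well as in its NLS, and the part of either in the results on the lines was not tested. In the drug experiment the log2 fold change of EGFR was 0.38 in cSNX vs. EGF (Benjamini-Hochberg adjusted p = 0.0622, edgeR, no overlap) and 0.38 in cSNX vs. ERL (adjusted p = 0.0102), and its part in those results was not tested either.

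The members differed widely in level. Per kilobase of exon, counted over all annotated exons, the means with EGF were 51.7 CPM for IFNGR1, 29.4 for TYK2, 17.6 for IFNGR2, 14.1 for JAK1 and 6.28 for IFNAR1. JAK2 stood at 2.14 CPM per kilobase, STAT2 at 1.62, IFNAR2 at 0.244 and IRF9 at 0.0233 on the same scale. Over the canonical transcript alone JAK1 (36.5 CPM per kilobase) lay above IFNGR2 (26.4) and STAT2 (3.42) above JAK2 (2.41), and the rest of the order was the same. IFNGR1 was thus the most abundant member and its partner IFNGR2 was lower, whereas the kinases TYK2 and JAK1 were far above JAK2.

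Most of the canonical transcript of the 2 lowest members is shared with other annotated genes. Of the 4074 bases of the canonical IFNAR2 transcript (chr21:33205282-33265675, plus strand, GRCh38), 93.1% also belong to an exon of another gene, the read-through gene IFNAR2-IL10RB or, on the opposite strand, IL10RB-DT. Of the 1626 bases of the canonical IRF9 transcript (chr14:24161234-24168043, plus strand), all but 113 are shared with other genes, among them another read-through gene, ENSG00000259529. A gene on the opposite strand that is not in the counts table, ENSG00000289757, also overlaps annotated exons of IRF9. By default featureCounts leaves a read that overlaps 2 genes unassigned, and IFNAR2-IL10RB held 0 to 7 counts and ENSG00000259529 at most 11. The low counts of IFNAR2 and IRF9 therefore cannot be told apart from reads left out, and their levels are not comparable with those of the other members. The shared part of the canonical IFNGR2 transcript (11.7%) is the overlap with TMEM50B on the opposite strand, JAK1 shared 0.079%, and the canonical transcripts of the remaining members shared none.

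The start of each gene was read in RefSeq windows (GRCh38.p14) from 250 bases before to 50 after a start, which were held for 8 of the members in 15 windows. Both strands were searched for the interferon-γ activated site GAS (TTCNNNGAA), the ISGF3 site ISRE (2 copies of GAAA with any 2 bases between them), the AP-1 site TGANTCA, the ETS site CCGGAAGT and the GC box GGGCGG. An ISRE or an AP-1 site was in none of the members' windows, against 3.574% and 7.709% of all 35116 windows. A GC box was in 8 of the 15 windows, in 7 members, against 44.954% of all windows. GAS letters were found only upstream of IRF9 (7.657% of all windows), and the ETS letters only upstream of JAK1 (4.138%). No match says only that the letters are absent from the window, and a match is not a measured binding site. For 4 genes 30 bases are given around the sites: the 2 interferon-γ receptor genes, and IRF9 and JAK1 for the motifs that only they held. The 2 receptor genes had the largest log2 fold changes of the members tested in cSNX vs. EGF and in cSNX vs. ERL. The letters run 5′ to 3′ on the strand of the gene, and capitals mark the motif (for IFNGR1 the GC box as it reads on the other strand).
IFNGR1: ccggacttgaccCCGCCCacgccctggtcc
IFNGR2: tcggGGGCGGgacgGGGCGGGGGCGGgggc
IRF9: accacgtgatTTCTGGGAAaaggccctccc
JAK1: ggtcatgagacCCGGAAGTttttttttttt
These lie at chr6:137219451-137219480 on the minus strand, chr21:33403341-33403370 on the plus strand, chr14:24161192-24161221 on the plus strand and chr1:65067790-65067819 on the minus strand. The first site begins 83, 68, 63 and 62 bases before the RefSeq start of its window, in this order, which for IFNGR1, IRF9 and JAK1 is not the outer end of the gene in GENCODE, and the IFNGR2 stretch holds 3 GC boxes.

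Counts were tested with edgeR's quasi-likelihood test, and genes with a Benjamini-Hochberg adjusted p under 0.05 over all genes tested were called. Of the 9 members, 8 passed the filter on low counts in both experiments, and IRF9 did not. The sources do not say whether the replicates were separate cultures, so the p-values measure the spread between these libraries, which may be technical. In RNA of whole cultures, a change in the share of cells that hold a transcript and a change in its amount per cell cannot be told apart.

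The chain that binds interferon-γ, IFNGR1 (chr6:137197483-137219449, minus strand, 7 exons in the canonical transcript), was lower with cSNX and higher with ERL. It stood at 183.2, 183.6 and 184.1 CPM in the EGF libraries, at 136.5, 127.2 and 131.5 CPM in the cSNX libraries and at 223.2, 257.8 and 233.7 CPM in the ERL libraries. No library of a drug group overlapped the EGF libraries, and the 2 drugs fell on opposite sides of them. IFNGR1 fell by 0.48 on the log2 scale in cSNX vs. EGF (standard error 0.085, Benjamini-Hochberg adjusted p = 0.00228, edgeR) and rose by 0.39 in ERL vs. EGF (standard error 0.084, adjusted p = 0.0016). Between cSNX and ERL, in the same fit, the log2 fold change was -0.86 (standard error 0.085, Benjamini-Hochberg adjusted p = 4.15e-07, edgeR). In the lines IFNGR1 was at 164.8, 182.1 and 162.0 CPM with shEGFR-WT and at 150.3, 165.1 and 164.9 CPM with shEGFR-NLS. These ranges overlapped, and the log2 fold change of shEGFR-NLS vs. shEGFR-WT was -0.084 (95% interval -0.24 to 0.069).

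The signalling chain IFNGR2 (chr21:33403413-33479348, plus strand, 7 exons) had log2 fold changes of the opposite sign in both drug comparisons, and the larger one of the pair with ERL. It was at 40.5, 46.0 and 47.9 CPM with EGF, at 62.1, 56.1 and 50.8 CPM with cSNX and at 15.1, 16.3 and 14.5 CPM with ERL. The highest ERL library (16.3 CPM) was far under the lowest EGF library (40.5 CPM), and the lowest cSNX library was above the highest EGF library. IFNGR2 fell by 1.54 on the log2 scale in ERL vs. EGF (standard error 0.10, 2.91-fold lower, Benjamini-Hochberg adjusted p = 1.46e-08, edgeR). In cSNX vs. EGF the log2 fold change was 0.33 (standard error 0.10), and this did not pass the test (Benjamini-Hochberg adjusted p = 0.0606, edgeR), though it did with DESeq2 as the test (0.0416) and with all 15 libraries in the fit (0.0257), over a range of 0.0257 to 0.275 in 13 alternatives. Directly compared, IFNGR2 was 3.67-fold higher with cSNX than with ERL (log2 fold change 1.87, standard error 0.11, Benjamini-Hochberg adjusted p = 6.19e-10, edgeR). In the lines the values were 35.5, 39.2 and 37.6 CPM with shEGFR-WT and 40.7, 39.5 and 35.2 CPM with shEGFR-NLS, which overlapped (log2 fold change 0.040, 95% interval -0.13 to 0.21).

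The neighbour of IFNGR2 on the other strand, TMEM50B, held 446, 576 and 554 counts with EGF and 1122, 1025 and 1079 counts with ERL. Strand was not used in the counting, so reads in the 199 shared bases could not be assigned by it, and the counts of the neighbour were highest where those of IFNGR2 were lowest within the drug experiment. The ratio of IFNGR2 to TMEM50B counts in a library was 2.21 ± 0.125 with EGF and 0.408 ± 0.0401 with ERL (SD, n = 3 each). The part of the shared bases in the IFNGR2 result was not tested, while 1500 of the 1699 bases of the IFNGR2 transcript are its own.

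**Figure D1:**
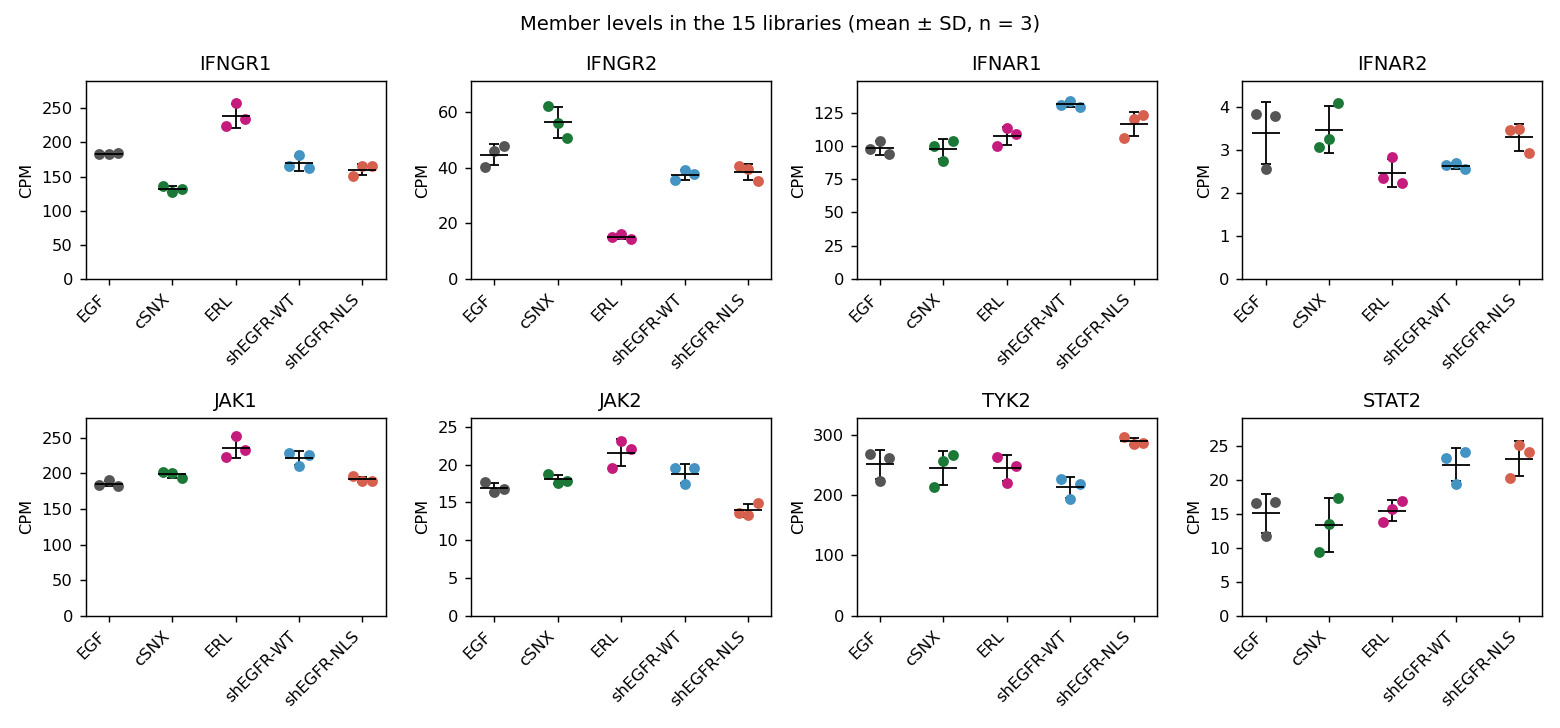
CPM of the 8 members that passed the filter on low counts (vertical axes, from 0, 1 panel per gene) in the 5 groups, with each point 1 library and the bars the mean ± SD (n = 3). IFNGR1 was highest and IFNGR2 lowest in the ERL libraries, and the JAK2 and TYK2 points of shEGFR-NLS stood apart from those of shEGFR-WT.

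Since both chains come from the same library, their ratio does not depend on library size. IFNGR1 counts were 4.53, 3.99 and 3.84 times the IFNGR2 counts with EGF, 2.20, 2.27 and 2.59 times with cSNX, and 14.8, 15.8 and 16.2 times with ERL. In these libraries the RNA of the 2 chains lay further toward IFNGR2 with cSNX and toward IFNGR1 with ERL, with no overlap between any of the 3 groups. Receptor protein was not measured. The ratio was 1.75-fold lower in cSNX vs. EGF and 3.79-fold higher in ERL vs. EGF. Each gave p = 0.1 in a two-sided exact permutation test, which is the smallest p that 3 libraries against 3 allow. In the lines the ratio was 4.64, 4.65 and 4.31 with shEGFR-WT and 3.69, 4.18 and 4.69 with shEGFR-NLS, which overlapped (exact permutation p = 0.4).

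**Figure D2:**
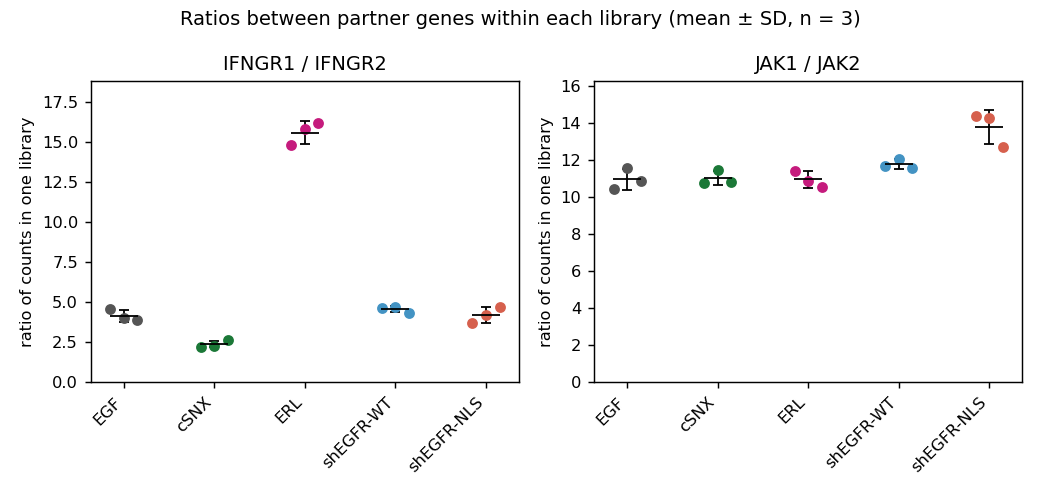
Ratio of the counts of partner genes within each library (vertical axes, no unit, from 0) in the 5 groups, for the interferon-γ receptor chains and the Janus kinases JAK1 and JAK2, with each point 1 library and the bars the mean ± SD (n = 3). IFNGR1 to IFNGR2 averaged 15.6 with ERL and 2.35 with cSNX, and JAK1 to JAK2 stayed near 11.0 in the drug groups.

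Neither chain of the type I receptor was called in any comparison. IFNAR1 (chr21:33324387-33359864, plus strand, 11 exons) was at 97.7, 103.7 and 93.8 CPM with EGF, at 100.2, 88.9 and 103.5 CPM with cSNX and at 100.1, 113.8 and 108.6 CPM with ERL. These 3 groups overlapped, and the log2 fold changes were -0.0092 (95% interval -0.20 to 0.18) in cSNX vs. EGF and 0.14 (-0.050 to 0.33) in ERL vs. EGF. In the lines IFNAR1 was at 130.5, 134.1 and 129.6 CPM with shEGFR-WT and at 106.1, 120.4 and 122.9 CPM with shEGFR-NLS. Every shEGFR-NLS library lay under every shEGFR-WT library, but the log2 fold change of -0.17 did not pass the test (Benjamini-Hochberg adjusted p = 0.0614, edgeR). IFNAR2 rested on 63 to 120 counts per library. It ranged from 2.56 to 3.82 CPM with EGF, from 3.07 to 4.09 CPM with cSNX, from 2.22 to 2.82 CPM with ERL, from 2.55 to 2.69 CPM with shEGFR-WT and from 2.92 to 3.48 CPM with shEGFR-NLS. No IFNAR2 difference passed the test, with log2 fold changes of 0.044 in cSNX vs. EGF, -0.45 in ERL vs. EGF (95% interval -0.90 to -0.013), 0.50 in cSNX vs. ERL (95% interval 0.056 to 0.94) and 0.33 in shEGFR-NLS vs. shEGFR-WT (95% interval -0.0028 to 0.66). The cSNX and ERL libraries did not overlap for IFNAR2, with a Benjamini-Hochberg adjusted p = 0.0525 in edgeR that ran from 0.0228 to 0.211 over 13 alternatives, 4 of which called it.

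The kinase JAK1 (chr1:64833223-65067754, minus strand, 25 exons), which serves both receptors, rose with ERL and was lower in shEGFR-NLS. It was at 184.2, 190.4 and 182.7 CPM with EGF, at 201.5, 200.8 and 193.2 CPM with cSNX and at 223.6, 251.9 and 232.6 CPM with ERL. The groups did not overlap, with EGF lowest and ERL highest. The rise in ERL vs. EGF was 0.36 on the log2 scale (standard error 0.082, Benjamini-Hochberg adjusted p = 0.00237, edgeR), and the value in cSNX vs. EGF was 0.098 (standard error 0.082, adjusted p = 0.569). JAK1 was lower with cSNX than with ERL (log2 fold change -0.26, Benjamini-Hochberg adjusted p = 0.0139, edgeR), a call that was lost without cSNX replicate 3 (adjusted p = 0.0552). In the lines it was at 228.1, 209.9 and 226.0 CPM with shEGFR-WT and at 196.1, 189.8 and 189.1 CPM with shEGFR-NLS. JAK1 fell by 0.21 on the log2 scale in shEGFR-NLS vs. shEGFR-WT (standard error 0.066, Benjamini-Hochberg adjusted p = 0.0179, edgeR), and the adjusted p was 0.0904 without shEGFR-NLS replicate 3, 0.088 without shEGFR-WT replicate 1 and 0.0634 without shEGFR-WT replicate 3.

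JAK2 (chr9:4984390-5129948, plus strand, 25 exons), the kinase of the IFNGR2 chain, was called in the same directions as JAK1. It was at 17.6, 16.4 and 16.8 CPM with EGF, at 18.7, 17.5 and 17.9 CPM with cSNX and at 19.6, 23.2 and 22.0 CPM with ERL. The ERL libraries lay above all others of the drug experiment, while EGF and cSNX overlapped. JAK2 rose by 0.36 on the log2 scale in ERL vs. EGF (standard error 0.10, Benjamini-Hochberg adjusted p = 0.0104, edgeR), and its value in cSNX vs. EGF was 0.092 (95% interval -0.13 to 0.31). It was called lower in cSNX vs. ERL (log2 fold change -0.27, Benjamini-Hochberg adjusted p = 0.0379, edgeR), but this call was lost in 9 of 13 alternatives, with adjusted p up to 0.109. In the lines JAK2 was at 19.6, 17.4 and 19.5 CPM with shEGFR-WT and at 13.6, 13.3 and 14.9 CPM with shEGFR-NLS. It fell by 0.43 on the log2 scale in shEGFR-NLS vs. shEGFR-WT (standard error 0.093, Benjamini-Hochberg adjusted p = 0.0013, edgeR).

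The ratio of JAK1 to JAK2 counts averaged 11.0 in each of the 3 drug groups, whose ranges overlapped. It was 11.8 ± 0.266 with shEGFR-WT and 13.8 ± 0.938 with shEGFR-NLS (SD, n = 3 each), with no overlap and an exact permutation p = 0.1, the smallest possible. ERL replicate 2 was the highest ERL library for IFNGR1, IFNGR2, IFNAR1, IFNAR2, JAK1 and JAK2, and without it the 4 calls of ERL vs. EGF held.

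TYK2 (chr19:10350533-10380608, minus strand, 25 exons), the kinase of the IFNAR1 chain, was called in shEGFR-NLS vs. shEGFR-WT and in none of the drug comparisons. It was at 226.6, 192.9 and 218.9 CPM with shEGFR-WT and at 295.6, 284.8 and 286.4 CPM with shEGFR-NLS. The groups did not overlap, and TYK2 rose by 0.44 on the log2 scale (standard error 0.072, Benjamini-Hochberg adjusted p = 0.000133, edgeR). In the drug experiment it was at 268.0, 222.9 and 261.3 CPM with EGF, at 212.6, 256.8 and 265.6 CPM with cSNX and at 263.6, 220.8 and 248.3 CPM with ERL. These groups overlapped, and the log2 fold changes were -0.031 in cSNX vs. EGF (95% interval -0.27 to 0.20) and -0.029 in ERL vs. EGF (95% interval -0.26 to 0.20).

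STAT2 (chr12:56341597-56360203, minus strand, 24 exons), which serves the type I and type III interferon routes, was called in no comparison. It was at 16.6, 11.8 and 16.8 CPM with EGF, at 9.39, 13.4 and 17.3 CPM with cSNX and at 13.8, 15.8 and 16.8 CPM with ERL. In the lines it was at 23.3, 19.5 and 24.1 CPM with shEGFR-WT and at 20.3, 25.1 and 24.1 CPM with shEGFR-NLS. The groups of each experiment overlapped, and the spread within the EGF and the cSNX group left wide intervals, of -0.58 to 0.25 on the log2 scale in cSNX vs. EGF and -0.36 to 0.45 in ERL vs. EGF. Between the lines the log2 fold change of STAT2 was 0.055 (95% interval -0.16 to 0.27). Both STAT2 and TYK2 were lowest in cSNX replicate 1, EGF replicate 2 and shEGFR-WT replicate 2 within their groups. IRF9, the DNA-binding partner of STAT2, had 1, 3 and 8 counts with EGF, 3, 2 and 15 with cSNX, 3, 0 and 0 with ERL, 3, 0 and 0 with shEGFR-WT and 3, 8 and 0 with shEGFR-NLS. At this depth, and with all but 113 bases of its transcript shared, no difference in IRF9 was detectable.

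**Figure D3:**
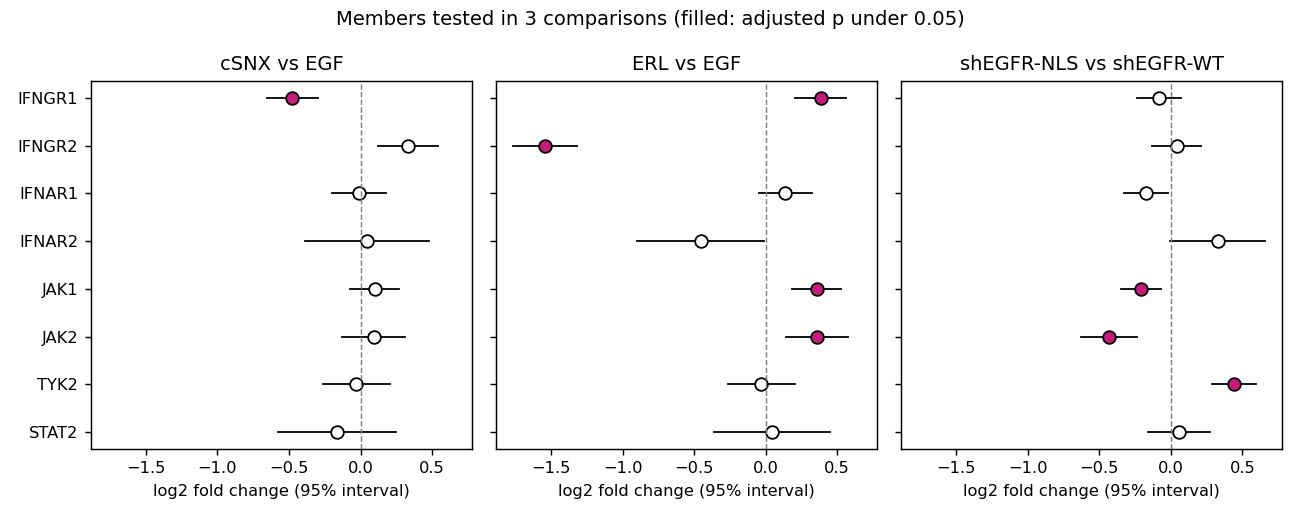
Log2 fold changes of the 8 members tested (horizontal axes, with 95% intervals) in cSNX vs. EGF, ERL vs. EGF and shEGFR-NLS vs. shEGFR-WT, where filled points have an adjusted p under 0.05. The point farthest from 0 is IFNGR2 in ERL vs. EGF at -1.54.

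Counted over the members, cSNX vs. EGF gave 1 call, the fall of IFNGR1, among the 8 tested, where 6.07% of all 15738 genes tested were called, 3.38% higher and 2.69% lower. IFNGR1, IFNGR2 and JAK1 did not overlap between these groups, against 25.7% of all genes tested, and the median log2 fold change of the members was 0.017. In ERL vs. EGF 4 of 8 members were called, against 44.0% of all genes (22.8% higher and 21.2% lower), with IFNGR1, JAK1 and JAK2 higher and IFNGR2 lower and a median of 0.092. These 4 were also those without overlap, against 52.3% of all genes. In cSNX vs. ERL 4 of 8 were called, against 56.1% (27.6% higher and 28.5% lower), with IFNGR2 higher and IFNGR1, JAK1 and JAK2 lower, and 5 did not overlap, against 60.2%. In shEGFR-NLS vs. shEGFR-WT 3 of 8 were called, against 41.4% of 15805 genes (20.4% higher and 21.0% lower), with TYK2 higher and JAK1 and JAK2 lower and a median of -0.022, and 5 did not overlap (IFNAR1, IFNAR2, JAK1, JAK2 and TYK2), against 52.2%. The shares called in ERL vs. EGF, in cSNX vs. ERL and between the lines were near those of all genes. The median over all genes was within 0.02 of 0 in each comparison. cSNX vs. EGF and ERL vs. EGF share the 3 EGF libraries.

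Across the 5 groups the members differed in which group was highest. The highest group was ERL for IFNGR1, JAK1 and JAK2, cSNX for IFNGR2 and IFNAR2, shEGFR-WT for IFNAR1 and shEGFR-NLS for TYK2 and STAT2. For IFNGR1 the order was ERL, EGF, shEGFR-WT, shEGFR-NLS and cSNX, and among neighbours in it the lines alone overlapped. For IFNGR2 it was cSNX, EGF, shEGFR-NLS, shEGFR-WT and ERL, and shEGFR-NLS overlapped both of its neighbours. For IFNAR1, JAK1, TYK2, STAT2 and IFNAR2 a single pair of neighbours was separate, and for JAK2 there were 2 such pairs, ERL above shEGFR-WT and EGF above shEGFR-NLS. The experiments were separate, so levels between the drug groups and the lines are a description.

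The genes most like IFNGR1 over the 15 libraries, by the root mean square difference of log2 CPM centred on each gene's mean, were ECHDC1 (0.083), PTPRK (0.11) and CAPN7 (0.11) among 13402 genes compared. Those most like IFNGR2 were SRSF7 (0.12), PNP (0.13) and SEC14L2 (0.14). The same measure of a member against its own mean was 0.34 for IFNGR1 and 0.59 for IFNGR2.

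The other genes of the route were grouped in lists, whose calls are read against 6.07% of all genes called in cSNX vs. EGF, 44.0% in ERL vs. EGF and 41.4% between the lines. Of the 9 interferon genes listed, none passed the filter, and none had more than 4 counts in any library. Of the lambda receptor chains, IFNLR1 and IL10RB, neither was called against EGF or between the lines, and 89.2% of the IL10RB transcript is shared with other genes. The listed IRFs, the family of IRF9, had 0 of 6 calls in cSNX vs. EGF, 3 higher and 1 lower of 6 in ERL vs. EGF and 1 higher and 3 lower of 6 between the lines, where 2 were called without shEGFR-NLS replicate 3 or shEGFR-WT replicate 3. IRF1, itself induced by interferon-γ, rose by 0.67 with ERL vs. EGF and fell by 0.67 in shEGFR-NLS vs. shEGFR-WT on the log2 scale.

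Among 17 negative regulators tested, SOCS2 and SOCS3, inhibitors of cytokine receptor signalling, were called higher in cSNX vs. EGF, with log2 fold changes of 1.13 and 0.58, and no other was called. SOCS2 fell by 1.76 on the log2 scale in ERL vs. EGF, where 2 of the list were higher and 6 lower (47.1% called, and 5 calls without ERL replicate 1 or EGF replicate 1), and fell by 0.68 between the lines, where 4 were higher and 2 lower (35.3% called). Among receptors of other cytokines that use Janus kinases, 3 of 17 rose in cSNX vs. EGF (IL6R by 1.27, OSMR by 0.67 and IL4R by 0.62 on the log2 scale) and 1 fell (PRLR). In ERL vs. EGF 6 rose and 6 fell of 17, with log2 fold changes of -1.68 for IL7R and -0.94 for IL6R among the falls and 0.84 for PRLR, the largest rise. Between the lines 5 rose and 6 fell of 18. CNTFR, the largest fitted rise there, had 0, 2 and 4 counts with shEGFR-WT and 28, 20 and 12 with shEGFR-NLS.

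Genes that interferons induce, the readout of the route, fell in shEGFR-NLS vs. shEGFR-WT in 23 of 25 tested, with a median log2 fold change of -0.91, against 21.0% of all genes called lower and a median over all genes of 0.006. The largest falls were those of IFI27 (-2.19), CXCL10 (-2.08) and OAS2 (-2.02). In cSNX vs. EGF 9 of 23 fell and 1 rose, with a median of -0.29, where 2.69% of all genes were called lower. OASL fell by 2.64 and IFIT1 by 1.40 on the log2 scale, and CXCL10, at 21, 13 and 20 counts with EGF and 2, 0 and 3 with cSNX, was at least 5.64-fold lower against a floor of 3 counts per library. In ERL vs. EGF 8 of 23 rose and 4 fell, with a median of 0.21, where 22.8% of all genes were called higher and 21.2% lower. Among those 4 were OASL (log2 fold change -1.58) and CXCL10 (-1.38, at 10, 3 and 10 counts), which also fell with cSNX. The largest rises were those of CIITA (log2 fold change 1.96) and GBP2 (1.38). CIITA had 29, 27 and 52 counts with ERL and 12, 7 and 6 with EGF, and GBP2 averaged 106.6 and 41.2 CPM. IFIT1 rose by 1.15 in ERL vs. EGF. OAS1, the 1 gene of the list that rose with cSNX (0.46), fell by 1.17 with ERL. RIGI, also among the genes tested, was not called against EGF, and 96.6% of its canonical transcript is shared with another gene.

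**Figure D4:**
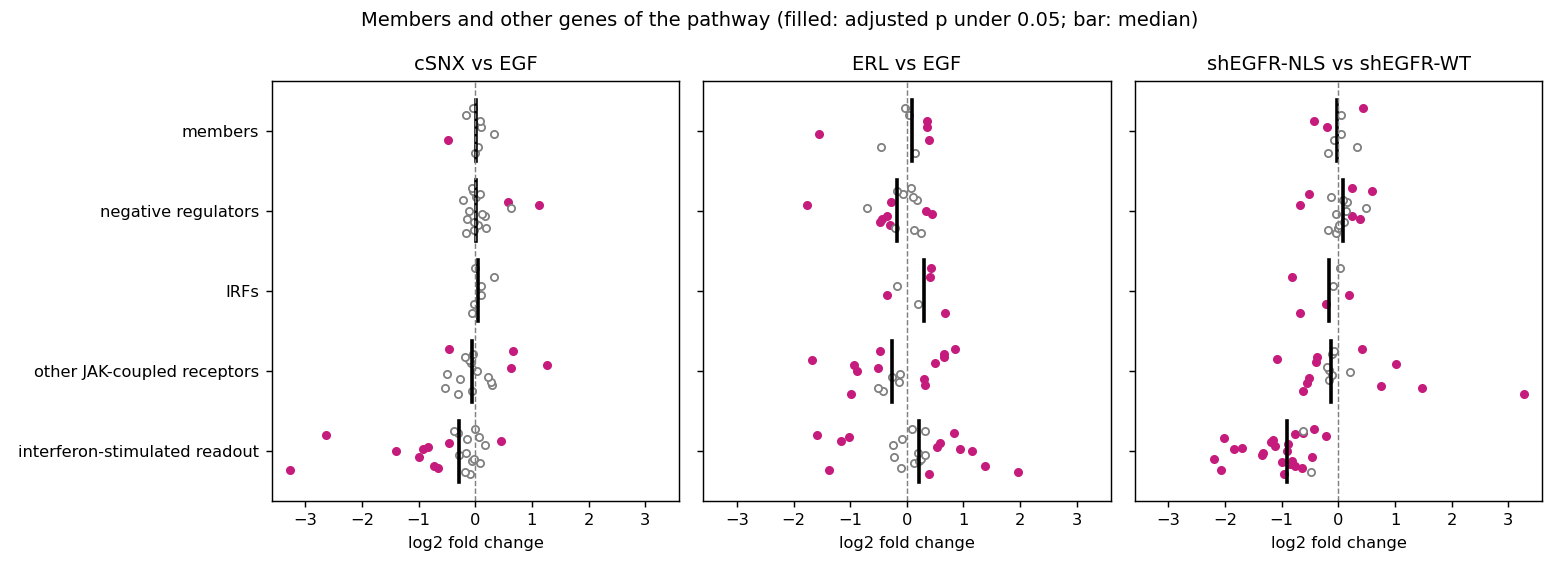
Fitted log2 fold changes (horizontal axes) of the members and of 4 lists of other genes of the route in cSNX vs. EGF, ERL vs. EGF and shEGFR-NLS vs. shEGFR-WT, with each point 1 gene tested, filled where the adjusted p is under 0.05, and the bar the median of the list. Filled member points lie on both sides of 0 in the ERL and the line panels, with IFNGR2 in ERL vs. EGF farthest out, and the interferon-stimulated genes lay below 0 in shEGFR-NLS vs. shEGFR-WT.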

How the data were processed

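The authors trimmed read pairs with TrimGalore, aligned them to GRCh38 with STAR and assigned the pairs to genes with featureCounts in unstranded mode, so the deposited values are raw counts with no normalization. The annotation release is not given in the sources used here. Groups were taken from the sample titles, and no library was left out. GENCODE 44 named 61399 of the 61552 gene IDs and gave coordinates and exon lengths.

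The tests were run in R 4.3.3 with edgeR 4.0.16 (TMM, filterByExpr by group, robust quasi-likelihood test, Benjamini-Hochberg adjustment over all genes tested, threshold 0.05), in 1 fit of the 9 drug libraries and 1 of the 6 line libraries, after the code was tested on simulated counts. SDs are of the CPM or ratios of the replicates, and standard errors come from the fit. Replicate libraries differed by more than the sampling noise (chi-square per degree of freedom 2.69 to 24.5). The members, the 7 lists of other genes (1 of them not reported here) and the markers were chosen with earlier results of these data known. Up to 3 called genes with the largest change were named per list and comparison, and EGFR always, though a few genes so named were left out. Some interferon-induced genes were also named in a comparison where their change was not among the largest. The alternatives were DESeq2's size factors, DESeq2 1.42.0 in place of edgeR, every gene without a filter, a minimum of 10 counts in each library, only the 2 groups compared, all 15 libraries in 1 fit, the replicate number as a block, canonical in place of all exons for lengths, and leaving out each replicate. RefSeq held no promoter window of IFNAR2.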

Additional observations from a re-analysis of the deposited data

How the results depend on the processing

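Of 408 log2 fold changes of members under alternatives, 365 kept their direction and their side of the threshold, 13 lost a call, 8 gained a call (4 of them IFNAR2 in cSNX vs. ERL) and 22 changed sign, none of the last being a call. In cSNX vs. EGF the members called were 2 in place of 1 with DESeq2 as the test and 2 with all 15 libraries in one fit, since IFNGR2 was then called. Leaving out each replicate gave 1 call in cSNX vs. EGF, 4 to 5 in ERL vs. EGF (IFNAR2 was added without EGF replicate 2, adjusted p = 0.0207 by edgeR with Benjamini-Hochberg adjustment), 2 to 4 in cSNX vs. ERL (2 without cSNX replicate 3) and 2 to 3 in shEGFR-NLS vs. shEGFR-WT. The cause of these changes was not tested. Over these fits the log2 fold change in cSNX vs. EGF ran from -0.057 to 0.044 for IFNAR1, from -0.13 to 0.14 for IFNAR2, from -0.12 to 0.064 for TYK2 and from -0.40 to 0.034 for STAT2. In ERL vs. EGF it ran from -0.12 to 0.038 for TYK2 and from -0.12 to 0.13 for STAT2, in cSNX vs. ERL from -0.069 to 0.098 for TYK2, and between the lines from -0.031 to 0.15 for STAT2. TYK2 in cSNX vs. ERL, -0.0018 in the fit reported, was 0.011 with DESeq2's size factors, 0.015 with DESeq2, 0.0046 with all 15 libraries and 0.0011 with the replicate block.

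Replicate numbers were shared by the labels of the groups. Deviations of same-numbered libraries from their group means had a Pearson's r over genes of -0.20 to 0.25 in 12 pairs. Between differently numbered libraries it was -0.32 to 0.38. Deviations within a group of 3 depend on each other, so these values cannot tell whether equal numbers shared a culture or a batch. With the replicate number as a block, members called were 1, 4, 3 and 3 in cSNX vs. EGF, ERL vs. EGF, cSNX vs. ERL and shEGFR-NLS vs. shEGFR-WT, and all genes called 841, 6707, 8643 and 5766 against 956, 6932, 8824 and 6538. The 956 genes called in cSNX vs. EGF became 1444 with all 15 libraries, 526 without cSNX replicate 2, 531 without EGF replicate 1 and 592 without EGF replicate 3. A fit of only the 2 groups compared was the reported fit for the lines, and IRF9 had no test under at least 10 counts in every library. Depth limits IFNAR2, at 63 to 120 counts per library, and IRF9, at 0 to 15.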
